A study of Xenopus tropicalis with 16 samples.

Results

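Replicate variation was measured as the spread between livers that had received the same treatment. For each gene, the log2 of its expression value plus 1 was taken in all 16 libraries and the mean of its treatment group was subtracted. The within-group standard deviation (SD) of what was left rests on 12 degrees of freedom, 3 from each group of 4. It was computed for the 2770 of 19921 genes in the tables that had a usable estimate in every library and a mean FPKM of at least 5 (FPKM, fragments per kilobase of transcript, scaled to the mapped fragments of the library). The livers came from female Xenopus tropicalis, the tropical clawed frog, and RNA was poly(A)-selected and sequenced by strand. There were 4 libraries each from frogs exposed to benzo[a]pyrene, a polycyclic aromatic hydrocarbon, to triclosan, a chlorinated antibacterial agent, and to a mixture, and 4 from unexposed frogs. The sources used here give neither doses nor exposure times nor what the mixture held. The labels call the samples biological replicates and do not say that each is a single frog, so that the spread may hold both differences between animals and technical differences.

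Most RNA of a liver comes from hepatocytes, and the rest from blood, immune, bile duct and vessel cells. Hepatocytes of egg-laying females make vitellogenin, the yolk precursor, under oestrogen. They also make hepcidin, the hormone that limits iron uptake, and they turn groups of genes up together in feedback programmes, such as the chaperones of the endoplasmic reticulum (ER) or the enzymes of sterol synthesis. In bulk tissue, fewer cells of a type and less RNA per cell cannot be told apart. Of 28 hepatocyte marker genes in the tables, 23 reached the level used here, while the albumin gene alb had no usable estimate in any library. Of other tissues, 2 of 19 exocrine pancreas markers reached it, the amylase genes amy2a and amy2b (SD 0.80 and 0.74). So did 2 of 20 fat and muscle markers (fabp4 and cidec) and 1 of 13 gallbladder and gut markers (fabp1). The gene fabp1 is also on the list of fatty acid and triglyceride synthesis, and its values cannot be assigned to gallbladder or gut. The 2 amylase genes fell in different covarying groups described below, whose mean deviations correlated at r = -0.916. None of the markers of endocrine pancreas, pigment cells or ovary did (0 of 8, 0 of 9 and 0 of 14).

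The median gene had a within-group SD of 0.411 on the log2 scale, a 1.33-fold deviation. The lower and upper quartiles were 0.305 and 0.583, the 5th and 95th percentiles 0.199 and 1.18, and the full range 0.0567 to 4.20. With 12 degrees of freedom, the 95% interval of an SD runs from 0.717 to 1.65 times its estimate. At the median SD, a difference between groups of 4 carries a 95% half-width of 0.634. Counting error, read from the width of the deposited confidence intervals, had a median SD of 0.0578, or 2.19% of the within-group variance. It made up more than 50% of that variance in 12 genes. For libraries listed at 0 this measure may be too small, so the 12 may leave out loci with such libraries. XB-GENE-5960520, listed at 0 in 4 libraries, had a counting SD of 0.0573, below that of the median gene. On this scale, spread rose weakly with level, with a Spearman rho of 0.146 across genes (genes are not independent). The median SD was 0.366 in the 25% of genes with the lowest means and 0.459 in the 25% with the highest. The 20 genes just above the level threshold had a median SD of 0.415, and the 20 just below it 0.318. Of a gene's variance over all 16 libraries, the median share within groups was 75.8%. Groups that did not differ would leave 80% on average, which is a mean and not a median.

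**Figure D1:**
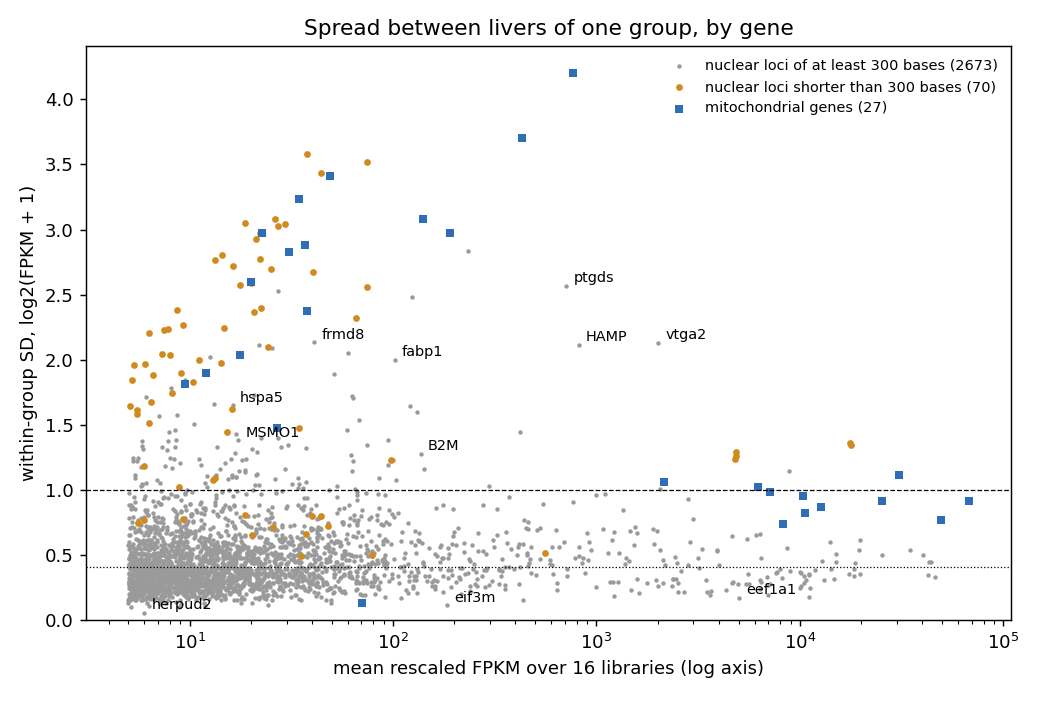
Within-group SD (vertical axis, log2 scale) of each of the 2770 genes against its mean rescaled FPKM over 16 libraries (horizontal axis, log scale), with loci shorter than 300 bases and mitochondrial genes marked. The dotted line is the median of 0.411 and the dashed line an SD of 1. Points above 2.5 are mostly short loci, vtga2, HAMP, ptgds and fabp1 stand far above other genes of their level, and eef1a1 and eif3m lie near the bottom.

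The depth behind these values was 10.9 to 17.9 M fragments (M, mega) per library, as implied by the confidence intervals. Of all libraries, mixture replicate 4 stood furthest apart. It had the smallest scaling factor (0.584, against 0.8003 to 1.34 elsewhere), the fewest genes at an FPKM of at least 1 (4832, against 5522 to 6833) and 10.59% ribosomal RNA in its summed FPKM. Benzo[a]pyrene replicate 4 followed with 3.45% ribosomal RNA, against 0.589 to 2.39% in the other 14.

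An SD of at least 1, a deviation of 2-fold or more, was reached by 192 genes (6.93%). Short loci were over-represented at this end: 72 of the 86 loci shorter than 300 bases were among them, and 120 of the 2684 longer ones. The median SD was 1.99 for short and 0.403 for longer loci. These loci hold small RNAs such as the box C/D snoRNAs SNORD72 (SD 3.08), SNORD100 (3.05) and SNORD28 (2.97), which guide RNA methylation and carry no poly(A) tail as mature molecules. SNORD72 had 179 in triclosan replicate 4, 125 in mixture replicate 4 and 116 in unexposed replicate 3, and was listed at 0 in the other 13 libraries. Of the 15 genes with a symbol and the largest SD, 14 were short loci. In 66 of the 86 short loci at least 1 library was listed at 0, against 13 of the longer ones. The boundary of 300 bases was chosen after the values were seen, and the single genes described next are longer. Some covarying groups described later hold short loci.

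The yolk precursor gene varied widely at a high level. The vitellogenin gene vtga2 (ENSXETG00000008637, scaffold GL172642.1, 1923716 to 1938403) had an FPKM of 4260, 2440, 159 and 452 in benzo[a]pyrene livers. It stood at 3582, 2661, 3994 and 174 in triclosan livers, at 1465, 321, 3160 and 5495 in mixture livers, and at 936, 57.4, 297 and 2731 in unexposed livers. Every group held livers with high and livers with low vitellogenin transcript, and all 4 groups overlapped, with an SD of 2.13 (95% interval 1.53 to 3.52) and a highest library 95.8 times the lowest. The nearest measured genes on the scaffold moved with it. ENSXETG00000025072 (1883659 to 1909289), which has no symbol, had 355, 169, 6.33 and 14.4 in benzo[a]pyrene, 172, 168, 374 and 7.04 in triclosan, 54.1, 12.03, 171 and 296 in mixture, and 20.7, 0.485, 12.9 and 145 in unexposed livers. XB-GENE-5965024 (1849871 to 1866899), which has a placeholder symbol, had 289, 286, 14.2 and 42.4 in benzo[a]pyrene, 389, 179, 318 and 12.2 in triclosan, 37.5, 7.05, 572 and 1115 in mixture, and 47.1, 1.64, 3.26 and 418 in unexposed livers. The same libraries were high and low for all 3 genes. Over the 16 deviations, vtga2 correlated with ENSXETG00000025072 at r = 0.988 and with XB-GENE-5965024 at r = 0.938, and leaving out any 1 library gave no r below 0.984 and 0.929. Where neighbouring loci are near-identical copies, the authors' estimates could share fragments between them.

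Genes elsewhere in the genome followed vtga2. The closest was mttp.2, a gene for the microsomal triglyceride transfer protein that loads lipid onto apolipoprotein B and vitellogenin, with r = 0.944 and a lowest leave-one-out r of 0.928. It varied far less, with an SD of 0.713 and a range from 399 in benzo[a]pyrene replicate 3 to 3660 in mixture replicate 4. The fatty acid carrier fabp1 (SD 2.00) is on the lists of gallbladder and gut markers and of fatty acid and triglyceride synthesis. It had 74.0, 27.7, 5.68 and 13.3 in benzo[a]pyrene, 18.7, 10.99, 19.5 and 8.05 in triclosan, 25.8, 4.00, 228 and 914 in mixture, and 36.7, 15.2, 28.9 and 200 in unexposed livers. Mixture replicates 3 and 4 and unexposed replicate 4 were its high libraries, and its r with vtga2 was 0.780. Among the 8 genes whose deviations were most like those of vtga2 were ext1, a heparan sulphate polymerase (r = 0.86), the transporter slc41a3 (r = 0.85) and prdx4, the peroxiredoxin of the ER (r = 0.84). Of the other measured genes of the oestrogen-response list, fkbp4, a steroid receptor co-chaperone, had an SD of 0.37 and APOB, the apolipoprotein B gene, one of 0.48, against 0.411 for the median gene.

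The hepcidin gene had an SD close to that of vtga2 (2.13). HAMP (ENSXETG00000032918, scaffold GL172987.1, 657845 to 659194) had 1034, 1517, 1642 and 105 in benzo[a]pyrene, 137, 602, 7.93 and 362 in triclosan, 229.6, 513, 147 and 3151 in mixture, and 2043, 395, 117 and 1083 in unexposed livers. Its lowest value was triclosan replicate 3 and its highest mixture replicate 4, the groups overlapped, and its SD was 2.11 (1.52 to 3.49). HAMP2 (ENSXETG00000032192), whose locus lies 7341 bases from that of HAMP, had 44.5, 96.4, 35.8 and 0 in benzo[a]pyrene, 1.37, 13.8, 0 and 6.48 in triclosan, 2.50, 14.8, 1.54 and 32.2 in mixture, and 59.1, 12.8, 2.50 and 26.2 in unexposed livers. The libraries low for HAMP were low for HAMP2 (r = 0.903, lowest leave-one-out r 0.889), and the caution on neighbouring copies applies. The list of 12 genes of iron and haem handling, HAMP included, had a median SD of 0.549 and a median pairwise r of 0.125. After HAMP, its highest SDs were those of the haem scavenger hpx (1.01) and the transferrin gene tf (0.91), and its lowest was that of fth1, the ferritin heavy chain (0.36).

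Several genes had a wide gap between 2 sets of libraries. The rule, set after the values were seen, asked for a step of at least 2 between ordered log2 values. At least 3 libraries had to lie on either side, and values were not centred on group means. This rule was met by 9 longer loci. A gap does not make each set narrow: the lower set of kdm7a ran from 0.234 to 9.61. The clearest without a value of 0 was frmd8 (ENSXETG00000023119), which encodes a FERM-domain protein. It had 75.2, 3.45, 4.60 and 3.49 in benzo[a]pyrene, 2.97, 3.64, 3.41 and 134 in triclosan, 96.4, 82.2, 149 and 5.41 in mixture, and 3.62, 78.2, 3.90 and 5.68 in unexposed livers. Thus 6 libraries lay between 75.2 and 149 and 10 between 2.97 and 5.68, with none between, and every group had libraries at both levels. The prostaglandin D2 synthase gene ptgds (SD 2.57) had 852, 491, 50.4 and 362 in benzo[a]pyrene, 29.3, 1967, 1177 and 498 in triclosan, 781, 19.97, 622 and 294 in mixture, and 1663, 1274, 15.1 and 1259 in unexposed livers. Here 1 library in each group was low (15.1 to 50.4) and 12 were at 294 or more. The low libraries of ptgds were not the high ones of frmd8 except for mixture replicate 2, so these 2 genes departed from their common level mostly in different livers. The homologous recombination gene swi5 was listed at 0 in benzo[a]pyrene replicate 4, triclosan replicates 2 and 4 and unexposed replicate 3 and lay between 12.3 and 62.0 in the other 12.

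A pair of chromatin genes also met this rule, with a lower set made up of benzo[a]pyrene livers only. The histone demethylase gene kdm7a had 9.61, 1.96, 157 and 0.234 in benzo[a]pyrene, 257, 292, 101 and 229 in triclosan, 255, 132, 156 and 212 in mixture, and 48.2, 58.4, 90.6 and 106 in unexposed livers. The gene jarid2, a subunit of the complex that methylates lysine 27 of histone H3, had 1.33, 0.994, 14.6 and 0.413 in benzo[a]pyrene, 52.4, 46.1, 22.1 and 40.1 in triclosan, 36.7, 36.6, 28.4 and 41.7 in mixture, and 17.1, 21.1, 12.8 and 16.5 in unexposed livers. For both, benzo[a]pyrene replicates 1, 2 and 4 lay below every other library and replicate 3 did not. Their deviations correlated at r = 0.91, which was 0.60 without benzo[a]pyrene replicate 3.

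**Figure D2:**
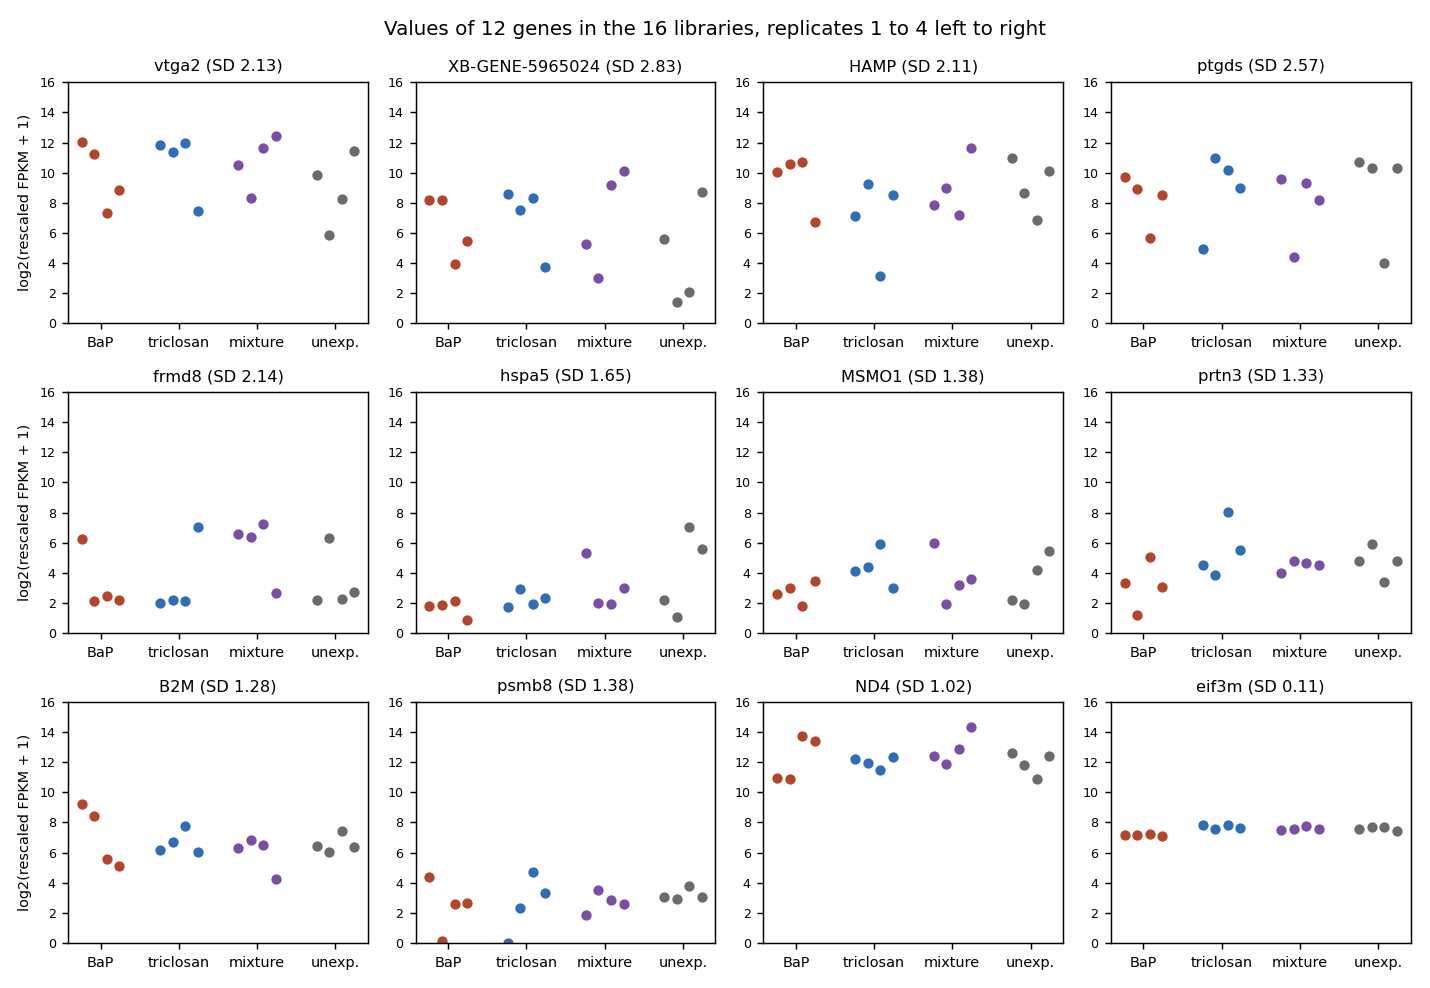
Values of 12 genes, as log2(rescaled FPKM + 1) on the vertical axis, in each library of the benzo[a]pyrene (BaP), triclosan, mixture and unexposed (unexp.) groups; points are replicates 1 to 4 from left to right and all panels share the range 0 to 16. Libraries of each group lie far apart for vtga2, XB-GENE-5965024, HAMP and ptgds, frmd8 falls on 2 levels, and eif3m (SD 0.114) is nearly flat within each group.

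The chaperones of the ER varied together. The gene hspa5, which encodes BiP, the main ER chaperone, had 2.49, 2.60, 3.32 and 0.849 in benzo[a]pyrene, 2.36, 6.62, 2.87 and 4.08 in triclosan, 39.3, 2.94, 2.85 and 7.01 in mixture, and 3.65, 1.13, 133 and 46.0 in unexposed livers. It was high in unexposed replicates 3 and 4 and mixture replicate 1 and at 7.01 or less in the other 13, with an SD of 1.65 (1.18 to 2.73). The gene hsp90b1, for the ER member of the HSP90 family, had 6.24, 5.67, 5.80 and 2.39 in benzo[a]pyrene, 4.57, 15.6, 6.75 and 7.05 in triclosan, 36.8, 7.89, 28.0 and 7.26 in mixture, and 10.9, 3.22, 86.1 and 54.4 in unexposed livers. The same 3 libraries led, and the pair correlated at r = 0.873 (lowest leave-one-out r 0.799). Further members of this set were the disulphide isomerase genes pdia6 (SD 1.04) and p4hb (0.69) and the calcium-binding chaperone calr (0.96). The genes sec61a1 (0.74) and ssr3 (0.74), of the channel through which secreted proteins enter the ER, fell in the same group of covarying genes. Over the list of 16 ER chaperone and unfolded protein response genes, the median pairwise r was 0.419 and the median SD 0.548. Over 35 genes of ER entry, glycosylation and vesicle coats, these were 0.561 and 0.432. The transcription factor genes of the response had SDs of 0.51 for xbp1, 0.24 for atf4 and 0.38 for ddit3, and the lowest SD in the list was 0.19, for the foldase gene FKBP2.

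Genes of sterol synthesis also varied together. MSMO1, the sterol C4-methyl oxidase, had 5.04, 6.89, 2.51 and 9.73 in benzo[a]pyrene, 16.8, 20.3, 60.2 and 6.80 in triclosan, 60.8, 2.85, 8.07 and 11.2 in mixture, and 3.47, 2.79, 16.9 and 43.4 in unexposed livers (SD 1.38). The lanosterol demethylase gene cyp51a1 had 18.2, 7.93, 1.24 and 21.2 in benzo[a]pyrene, 21.0, 16.1, 34.3 and 3.59 in triclosan, 42.0, 3.92, 18.6 and 9.16 in mixture, and 6.47, 10.4, 18.4 and 33.6 in unexposed livers (SD 1.28). Both were highest in their group in benzo[a]pyrene replicate 4, triclosan replicate 3, mixture replicate 1 and unexposed replicate 4, and they correlated at r = 0.824. All 11 members of the list had an SD above the median gene, with hmgcs1 (1.14), which acts early in the pathway, near the top and tm7sf2, a sterol reductase (0.42), lowest. Their median pairwise r was 0.618, and 0.534 without mixture replicate 1. MSMO1 and hspa5 correlated at r = 0.668.

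Fatty acid and triglyceride synthesis had 13 genes with a median SD of 0.601, against 0.719 for the 11 genes of sterol synthesis. Of the 13, 6 were in the upper 10% of all genes (SD of at least 0.859, 277 genes), and their median pairwise r was 0.166, against 0.618 for sterol synthesis. THRSP, a lipogenic regulator also called Spot 14, had an FPKM of 19209, 11428, 2882 and 23988 in benzo[a]pyrene, 6223, 4134, 9835 and 10095 in triclosan, 7584, 2058, 1307 and 2465 in mixture, and 3376, 26202, 3816 and 6406 in unexposed livers (SD 1.15). The highest value was in unexposed replicate 2 and the lowest in mixture replicate 3, and a second locus with this symbol, thrsp, had an SD of 0.53. The triglyceride synthase gene dgat2 had an SD of 1.32, from 3.49 in mixture replicate 3 to 67.5 in mixture replicate 1. THRSP belonged to a group of 10 genes with the lipase pnpla3 (SD 0.89) and the mitochondrial uncoupling protein ucp2 (1.24), whose mean deviation was 1.84 in unexposed replicate 2. Without that library, the group's median pairwise r was 0.538, against 0.712 with it.

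Glucose handling varied in single genes. The insulin-repressed binding protein gene igfbp1 (SD 1.51) had 0.880, 10.2, 25.4 and 37.5 in benzo[a]pyrene, 14.9, 1.84, 2.44 and 18.8 in triclosan, 1.11, 8.23, 11.7 and 5.38 in mixture, and 10.8, 12.8, 6.17 and 0.662 in unexposed livers. Each group spanned low and high livers. G6PC, one of the genes of glucose-6-phosphatase, which releases glucose, had an SD of 1.23 and its highest value of 108 in benzo[a]pyrene replicate 4. The 22 genes of gluconeogenesis, glycolysis and glycogen had a median pairwise r of 0.095, with GYS2, the liver glycogen synthase, steadiest at an SD of 0.26. In amino acid catabolism, uroc1, the urocanase of histidine breakdown, had 10.2, 3.00, 58.1 and 129 in benzo[a]pyrene, 59.1, 28.1, 62.8 and 33.4 in triclosan, 15.5, 7.48, 51.0 and 264 in mixture, and 57.7, 164, 20.5 and 50.4 in unexposed livers (SD 1.71). The urea cycle gene ass1 (SD 0.970) ranged from 307 in benzo[a]pyrene replicate 2 to 2206 in mixture replicate 1. The branched-chain enzyme ivd was steadiest among the 34 genes of the list at 0.22.

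Immune genes split into separate sets. A set of 18 genes held the granule protease prtn3, the metalloproteinases mmp9 and mmp3, and cyba and coro1a, which act in the oxidase and actin cortex of white blood cells. In it, prtn3 had 8.80, 1.27, 31.5 and 7.31 in benzo[a]pyrene, 21.6, 13.2, 259 and 45.7 in triclosan, 15.2, 26.3, 24.3 and 21.7 in mixture, and 27.1, 59.7, 9.64 and 26.1 in unexposed livers (SD 1.33). Triclosan replicate 3 was far above the others, and the mixture libraries were close together. The gelatinase mmp9 followed with 8.65, 2.17, 27.4 and 9.51 in benzo[a]pyrene, 11.4, 11.6, 101 and 24.6 in triclosan, 11.1, 16.7, 13.6 and 19.7 in mixture, and 17.2, 31.2, 9.28 and 20.3 in unexposed livers. The r of prtn3 was 0.981 with mmp9 and 0.928 with mmp3, and 0.967 and 0.874 without triclosan replicate 3. Only 2 of the 11 granulocyte markers in the tables, prtn3 and mmp9, reached the level used here, and 2 of 9 macrophage markers, c1qa (SD 0.65) and ctss (0.52), did.

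Antigen presentation genes differed in which livers were high. B2M, the light chain of class I molecules and a common reference gene, had 600.5, 349, 46.0 and 34.02 in benzo[a]pyrene, 70.7, 105, 213 and 66.0 in triclosan, 78.2, 112, 88.8 and 17.8 in mixture, and 84.9, 64.4, 171 and 82.9 in unexposed livers (SD 1.28). Benzo[a]pyrene replicates 1 and 2 were high and mixture replicate 4 was low. The class II invariant chain cd74 followed it at r = 0.904, with 92.4 in benzo[a]pyrene replicate 1 and 1.47 in mixture replicate 4 as its extremes. The class I heavy chain mhc1a had 18.1, 0.339, 2.01 and 6.23 in benzo[a]pyrene, 0.0719, 4.42, 11.1 and 6.46 in triclosan, 3.505, 8.96, 2.98 and 2.30 in mixture, and 2.79, 1.93, 10.1 and 3.13 in unexposed livers. The immunoproteasome subunit psmb8 had 19.5, 0.0905, 5.12 and 5.34 in benzo[a]pyrene, 0, 3.93, 24.6 and 9.04 in triclosan, 2.54, 10.5, 6.31 and 4.88 in mixture, and 7.30, 6.62, 12.6 and 7.32 in unexposed livers. Both were near or at 0 in benzo[a]pyrene replicate 2 and triclosan replicate 1, and they correlated at r = 0.914, or 0.869 without triclosan replicate 1. The heavy chain mhc1a and B2M, partners in 1 molecule, correlated at 0.364, a value that ran from 0.099 (without benzo[a]pyrene replicate 1) to 0.665 as single libraries were left out. The constitutive proteasome was steady beside psmb8 (SD 1.38): the other 32 genes of the proteasome list had SDs from 0.15 (psmd13) to 0.77 (psmd8).

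Red cell genes tended to vary together. The globin gene hbd had 921, 1230.1, 368 and 1271 in benzo[a]pyrene, 216, 95.7, 146 and 306 in triclosan, 83.1, 161, 457 and 101 in mixture, and 345, 77.7, 68.2 and 89.9 in unexposed livers (SD 0.944). The red cell membrane anchor ank1 had 53.7, 90.9, 46.9 and 107 in benzo[a]pyrene, 33.6, 25.1, 24.1 and 41.7 in triclosan, 21.9, 34.5, 63.4 and 19.5 in mixture, and 31.4, 25.5, 23.3 and 27.1 in unexposed livers (SD 0.512). The 2 genes correlated at r = 0.832. Mixture replicate 3 was the high library of its group for both, and benzo[a]pyrene replicates 2 and 4 were above the other 2 of theirs. Over 15 erythroid genes the median pairwise r was 0.702, with a median SD of 0.512, and it was 0.615 without mixture replicate 3, where their mean deviation was 0.841. The globin genes hba1 and hbg1 lacked a usable estimate in 11 and 4 libraries and are not among the 15. HBA-L5, a globin gene by its symbol, was not on the list and had an SD of 1.33. Of the erythroid genes, ca2 (SD 0.941) and klf17 (0.684) fell in a covarying group of 22 genes described below, and hbd did not. The share of blood in a liver sample was not measured, and its part in these values was not tested.

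Mitochondrially encoded transcripts had the highest median r of the 35 lists with at least 3 members. ND4, a subunit of respiratory complex I, had 1987, 1922, 13961 and 11128 in benzo[a]pyrene, 4671, 3893, 2807 and 5187 in triclosan, 5499, 3813, 7676 and 20372 in mixture, and 6227, 3608, 1929.7 and 5378 in unexposed livers (SD 1.02). Replicate 4 of the mixture and replicates 4 and 3 of benzo[a]pyrene stood above the other 13 libraries. Over the 9 protein genes measured in all libraries the median pairwise r was 0.967, and 0.963 without mixture replicate 4. The median SD was 0.916, and the exception was ND6, at 0.134 among the 15 steadiest genes with a symbol. ND6 is the 1 protein gene on the light strand of vertebrate mitochondrial DNA, and lay between 50.1 and 90.4 in all libraries. COX1 and COX3 lacked a usable estimate in 3 and 2 libraries and are not among the 9. Respiratory chain genes of the nucleus were steady: 64 genes had a median SD of 0.342, and 11 were in the lower 10% (SD of 0.234 or less).

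The mitochondrial genes were part of a larger axis. Among the 500 genes of largest SD, average-linkage clustering on 1 minus r, cut at 0.4, gave 8 groups of at least 10 genes, which held 203 genes. A group of 55 contained ND4 and 7 other mitochondrial protein genes, 7SK and U3 RNA, RNaseP_nuc, 3 ribosomal RNA loci, the splicing regulators clk2 and rbm5, and uroc1. Its median pairwise r was 0.761, and its mean deviation was 1.35 in benzo[a]pyrene replicate 4 and 1.29 in mixture replicate 4, the 2 libraries with the most ribosomal RNA, a share to which the 3 ribosomal RNA loci of the group themselves contribute. A group of 56 contained B2M, cd74, the complement regulator cfi (SD 1.12), angiotensinogen (agt, 1.16), C-reactive protein (crp.2, 1.09) and the secretory genes cst3, rbp4 and ahsg. Its median pairwise r was 0.702. The mean deviations of these 2 groups over 16 libraries correlated at r = -0.916, and those of the 55-gene group and a group of 22 genes led by rab10 and edf1 at r = -0.857. For the single genes ND4 and B2M, r was -0.930, and between -0.945 and -0.911 whichever library was left out. Benzo[a]pyrene replicate 4 and mixture replicate 4 also had the fewest genes at an FPKM of at least 1 (5522 and 4832). Their scaling factors were the smallest (0.8003 and 0.584). Unexposed replicate 3, where the 55-gene group was at -0.824, had the most genes (6833) and the largest factor (1.34). The triclosan group did not follow: its replicate 3 had -0.679 with the fewest genes of that group (5917). Whether RNA quality differed between these libraries was not measured beyond the ribosomal RNA share. Its part in this axis, and that of scaling factor and genes detected, was not tested.

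**Figure D3:**
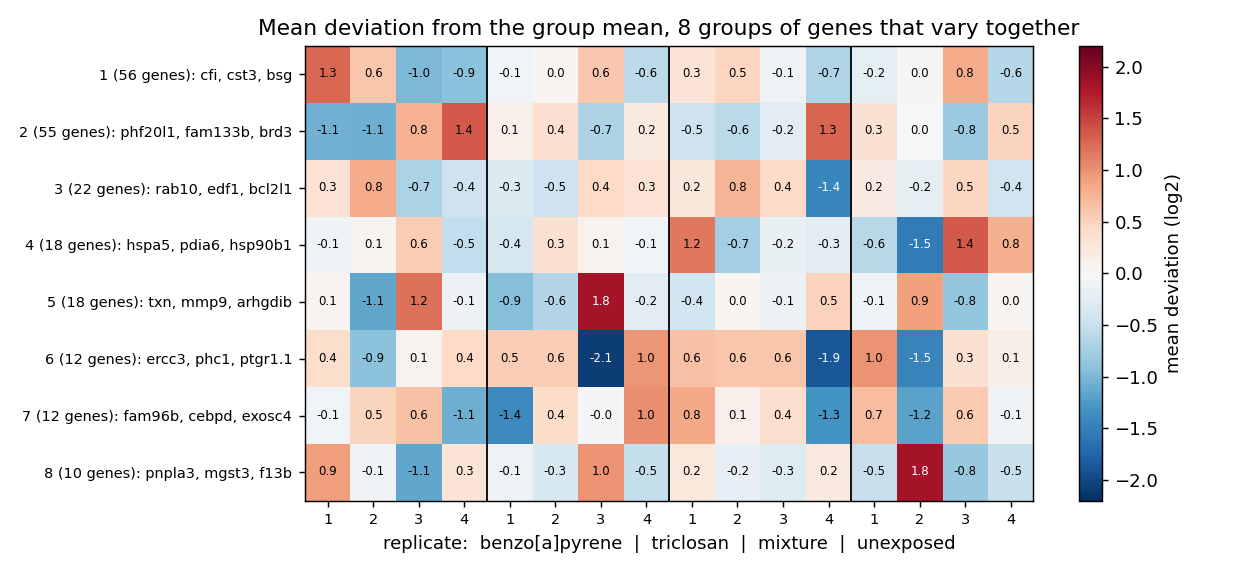
Mean deviation from the group mean (log2, colour and printed value) of the 8 groups of genes that vary together, in rows with the number of genes and 3 leading symbols, in each of 16 libraries, in columns by treatment. Groups 1 and 2 run opposite to each other in most libraries. Group 4 (hspa5) differs between unexposed livers, from -1.54 in replicate 2 to 1.36 in replicate 3. Group 5 (mmp9) is highest in triclosan replicate 3 at 1.82.

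The remaining groups of genes were smaller. One of 18 genes was led by hspa5 and pdia6 (median r 0.734), with mean deviations of -1.54 in unexposed replicate 2 and 1.36 in unexposed replicate 3. One of 12 genes with ercc3, ass1 and the interferon-induced mx1 (SD 1.25) had -2.08 in triclosan replicate 3, -1.87 in mixture replicate 4 and -1.47 in unexposed replicate 2. One of 12 genes with fam96b, cebpd and fga had -1.40 in triclosan replicate 1, -1.32 in mixture replicate 4, -1.17 in unexposed replicate 2 and -1.07 in benzo[a]pyrene replicate 4. These mean deviations are not scaled by SD, and each of these groups held 1 short locus of large SD that weighs on them. In the order given, these were ENSXETG00000029311 (91 bases, SD 1.97), ENSXETG00000034392 (67 bases, SD 4.20) and ENSXETG00000033894 (96 bases, SD 3.52). Since genes were chosen and grouped by the same deviations, these r describe the groups and test nothing. Over all 3835065 pairs of the 2770 genes the median r was 0.004, with 0.910% of pairs at 0.8 or more and 0.736% at -0.8 or less. The first 4 principal components of the deviations held 22.5, 15.1, 11.6 and 8.40% of their variance. Neighbouring nuclear loci within 10000 bases of each other had a median r of 0.108, with 4.21% of 309 pairs at 0.8 or more. Neighbours over 200000 bases apart had a median of 0.055 and 1.495% of 602 pairs.

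Of the 15 genes with a symbol and the smallest SD, many had a mean level close to the limit of 5. The lowest SD was that of herpud2, an ER membrane protein gene, with 6.01, 6.33, 5.88 and 5.82 in benzo[a]pyrene, 6.09, 5.48, 5.66 and 5.89 in triclosan, 6.31, 6.42, 6.12 and 7.06 in mixture, and 5.38, 5.77, 5.66 and 5.74 in unexposed livers. Its SD of 0.0567 was below its counting SD of 0.0585, so that no spread beyond counting error was detectable at this depth. After it came the nutrient-sensing GTPase rraga (0.104), pigt of GPI anchor assembly (0.104), the catenin ctnnd1 (0.107) and the phosphatase subunit ppp2r2a (0.111). The translation initiation subunit eif3m combined a low SD (0.114, interval 0.0815 to 0.188) with a high level. It had 142, 140.5, 148 and 133 in benzo[a]pyrene, 224, 186, 229.7 and 194 in triclosan, 182, 189, 212 and 184 in mixture, and 188, 208, 207 and 173 in unexposed livers. For eif3m, every benzo[a]pyrene library lay below every library of the other groups. Its low SD within groups is therefore not a constant level across groups. The other genes of smallest SD with a symbol, 9 in all, were ola1, amfr, aifm1, ap3s1, mapre1, rab3ip, cxorf56, nek9 and ND6, at 0.1198 to 0.134.

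Common reference genes ranged from very variable to very steady. The 15 of 30 listed reference genes that reached the level had a median SD of 0.481, against 0.411 over all genes. Of these, 2 were in the upper 10% and 2 in the lower 10%. B2M (1.28) and slc35b1 (0.974) varied most, followed by GAPDH (0.668) and the actin genes actb (0.581) and actg1 (0.519). GAPDH had 1051, 809, 401 and 1401 in benzo[a]pyrene, 1358, 776, 1116 and 592 in triclosan, 594, 640.3, 541 and 1067 in mixture, and 906, 1933, 489.9 and 674 in unexposed livers. Its highest and lowest libraries within the unexposed group were 1933 and 489.9. The ribosomal protein genes rplp0 (0.318) and rps18 (0.232) and the elongation factor gene eef1a1 (0.171) were steadiest. The last had 4062, 4593, 3924 and 3591 in benzo[a]pyrene, 5017, 4967, 6558 and 4538 in triclosan, 5954, 5317, 4632 and 5051 in mixture, and 6137, 4926, 5592 and 5925 in unexposed livers. Its benzo[a]pyrene libraries, at 3591 to 4593, overlapped the others, at 4538 to 6558, only in replicate 2. Its widest group was triclosan.

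**Figure D4:**
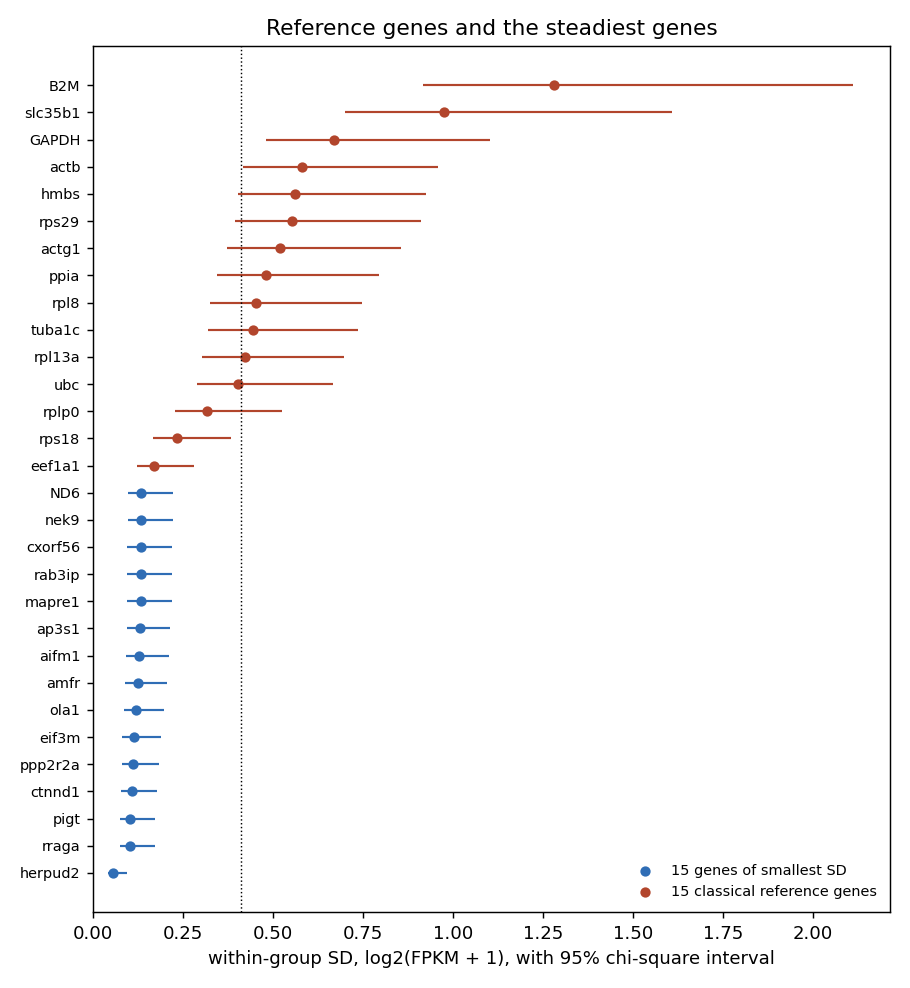
Within-group SD (horizontal axis, log2 scale) with its 95% chi-square interval for the 15 classical reference genes that reached the level and, below them, the 15 genes with a symbol of smallest SD; the dotted line is the median of all genes. B2M and slc35b1 lie above all others, and the intervals of eef1a1 and rps18 end below the dotted line.

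Across the 45 gene lists, median SDs were higher for many hepatocyte functions than for translation and splicing. Median SDs were 0.579 over 23 hepatocyte markers, 0.587 over 34 genes of amino acid catabolism and 0.518 over 32 acute phase, complement and coagulation genes. They were 0.339 over 77 cytosolic ribosomal protein genes, 0.326 over 33 translation factors, 0.350 over 47 mitochondrial ribosomal protein genes, 0.344 over 33 splicing factors and 0.359 over 20 genes of fatty acid oxidation, against 0.411 over all genes. Of the 77 cytosolic ribosomal protein genes, 0 were in the upper and 8 in the lower 10%. Low spread did not exclude shared variation. Cytosolic ribosomal protein genes had a median pairwise r of 0.488, with a mean deviation of -0.354 in benzo[a]pyrene replicate 1. For mitochondrial ribosomal protein genes it was 0.023. Immediate early and glucocorticoid-responsive genes were variable (median SD 0.712, with egr1 at 1.12) and had a median r of 0.075. For the xenobiotic enzymes and targets of the aryl hydrocarbon receptor, which benzo[a]pyrene binds, the median SD was 0.507 over 12 genes, with cyp1a1 at 0.59. These are descriptions, since lists were not tested against other genes.

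**Figure D5:**
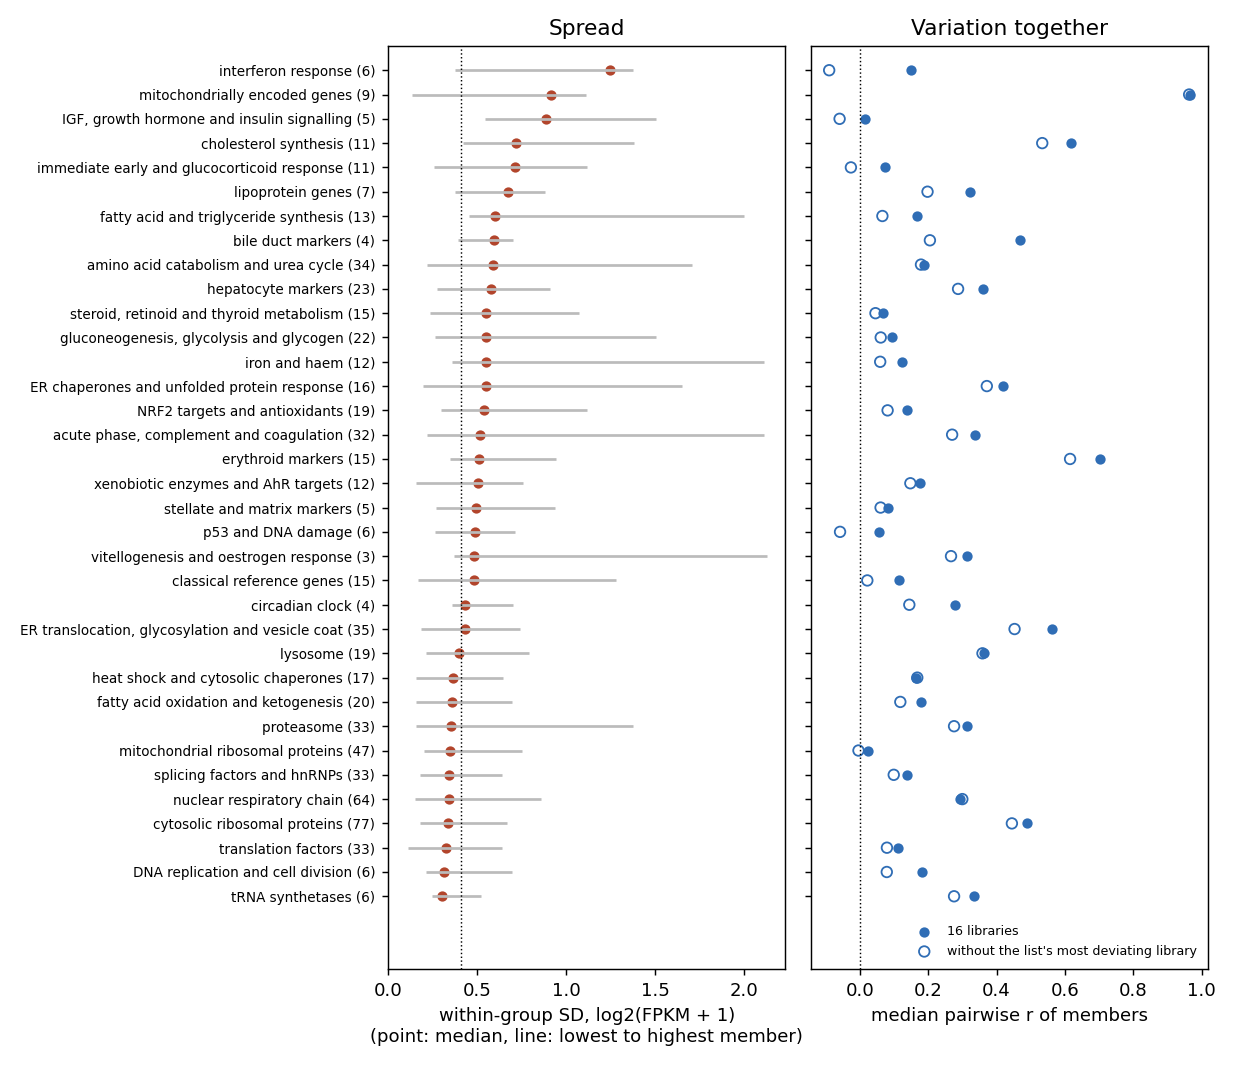
For the 35 gene lists with at least 3 members (number in brackets), the left panel shows the median within-group SD with a line from the lowest to the highest member and the median of all genes dotted, and the right panel the median pairwise r of deviations with all 16 libraries (filled) and without the library that deviates most for that list (open). Mitochondrially encoded genes lie furthest right at 0.967, followed by erythroid genes at 0.702 and cholesterol synthesis at 0.618, while translation factors and mitochondrial ribosomal proteins are low in both panels.

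Whether exposure altered the spread itself was tested for whole libraries and for single genes. The median SD over genes was 0.425 in benzo[a]pyrene, 0.330 in triclosan, 0.390 in mixture and 0.348 in unexposed livers. The root mean square deviation of each library was 0.732, 0.637, 0.762 and 0.736 in benzo[a]pyrene, 0.598, 0.517, 0.693 and 0.642 in triclosan, 0.608, 0.611, 0.564 and 0.876 in mixture, and 0.553, 0.672, 0.685 and 0.627 in unexposed livers. Means were 0.717 ± 0.0546 in benzo[a]pyrene and 0.634 ± 0.0598 in unexposed livers (SD, n = 4 each). The difference of 0.0828 did not pass an exact two-sided permutation test (p = 0.0857, adjusted over 3 comparisons p = 0.257; the smallest p the design allows is 0.0286). For triclosan (0.613 ± 0.0744) and the mixture (0.665 ± 0.142), the differences of -0.0216 and 0.0305 had exact permutation p-values of 0.686 and 0.886. Each root mean square was taken around the mean of its own group of 4. The 4 values of a group are therefore linked, and the p-values of all 3 comparisons are approximate. Genes kept part of their rank between groups: Spearman's rho of gene SDs between 2 groups was 0.398 to 0.467.

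By gene, a limma fit to the absolute deviations from the group mean called 33 of 2770 genes (1.19%) for benzo[a]pyrene against unexposed, 22 (0.794%) for triclosan and 23 (0.83%) for the mixture, at an adjusted p below 0.05. Spread was wider in exposed livers for 18, 9 and 12 of them and narrower for 15, 13 and 11. Of the calls, 11, 7 and 11 were at loci listed at 0 throughout at least 1 group, which passed the level filter only through other groups, so their count supports nothing. The counts do not hold when deviations are taken from the group median, which left 1, 1 and 2 genes. All 4 of those calls were at 2 short loci, ENSXETG00000029309 and ENSXETG00000029246, which were listed at 0 in 14 libraries each. Among the longer loci called with the mean, hspa5 was narrower in benzo[a]pyrene than in unexposed livers (difference -2.24, SE 0.58, limma adjusted p = 0.013, and 0.475 with the median). kdm7a was wider (difference 2.05, SE 0.48, adjusted p = 0.0046, and 0.549 with the median). The coat protein gene copb1, the esterase aadac and the splicing factor gene phf5a were called as narrower in each of the 3 comparisons, which share the unexposed libraries. For aadac, unexposed livers had 50.4, 106, 20.01 and 26.7, against ranges of 31.8 to 49.9 in benzo[a]pyrene, 43.9 to 59.1 in triclosan and 32.3 to 50.6 in mixture livers. No longer locus was therefore called for a difference in spread under both centres.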

How the data were processed

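Poly(A)-selected liver RNA was sequenced in 16 libraries, and the authors deposited an FPKM, its confidence interval and a status for 19921 Ensembl genes per library. The submitters' processing notes name Trimmomatic 0.32.1, Bowtie 0.12.7, TopHat2 0.6 and Cufflinks 0.0.7, without roles. No source used here names the genome build. Estimates with a status other than OK (54, in 10 genes) were treated as missing. Libraries were rescaled by the median of ratios over 3959 genes with an FPKM of at least 1 in all 16, and log2(FPKM + 1) was centred on its group mean. Printed FPKM values are rescaled, and a difference on this scale understates the change of low genes. Counting error came from the deposited confidence intervals. PCR duplicates were not identifiable, so it covers counting error only.

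Spread was compared with limma 3.58.1 (R 4.3.3) on absolute deviations across all 2770 genes with Benjamini-Hochberg adjustment, and with exact permutation tests of library root mean squares. The fits were tested on simulated data. With equal spreads in all groups, the fit to deviations from the group mean still made calls, and the fit from the group median made none. Calls with the mean as centre alone therefore do not establish a difference in spread. P-values weigh a difference in mean deviation against variation between these samples, which may be technical. In the main limma fit the median prior degrees of freedom were infinite. The median gene's own variance was thus replaced by the trend over genes. Correlations are over 16 deviations that sum to 0 in each group and share library effects, and carry no p. Genes were named from sets fixed by rule, among those with a symbol. The sets were the 15 of largest and 15 of smallest SD and 10 of largest SD for their level. They also held the 6 leading genes of each covarying group, the 2 highest and 1 lowest of each list and every reference gene. A last set held up to 5 genes of smallest p per spread contrast. Not every gene of these sets is named. The longer loci given for spread were mostly not those of smallest p, such as mfap3l. Other named genes (frmd8, swi5, mttp.2, jarid2, aadac, phf5a, faim, HBA-L5 and further list members, partners and group members) were chosen after their values were seen. Members and lists were chosen with earlier results of these data known. Alternatives were the deposited FPKM, another pseudocount, other level limits, the group median as centre, a replicate block, rank correlation, another limma setting, leaving out libraries and, chosen after seeing the data, loci of at least 300 bases. Python 3.11.15, numpy 2.4.6, pandas 2.3.3, scipy 1.17.1 and matplotlib 3.10.9 were used.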

Additional observations from a re-analysis of the deposited data

Results flagged for a closer look

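In 10 of 144 groups of 4 (36 genes), 1 library lay further from the other 3 than Dixon's 95% limit on the log2 scale. For genes not chosen by their values, chance gives this in about 1 in 20 groups. Many of these 36 genes were named for their spread or after their values were seen. The count therefore cannot be set against that rate. vtga2 had an FPKM of 174 in triclosan replicate 4, against 2661 to 3994 in the other triclosan livers. HAMP had 105 in benzo[a]pyrene replicate 4, against 1034 to 1642. ptgds had 15.1 in unexposed replicate 3, against 1259 to 1663. frmd8 had 75.2 in benzo[a]pyrene replicate 1, 134 in triclosan replicate 4 and 78.2 in unexposed replicate 2, while no other library of those groups was above 5.68. hsp90b1 had 2.39 in benzo[a]pyrene replicate 4, against 5.67 to 6.24. hbd had 345 in unexposed replicate 1, against 68.2 to 89.9. psmb8 had 12.6 in unexposed replicate 3, against 6.62 to 7.32. swi5 was listed at 0 in unexposed replicate 3, against 40.8 to 62.0. Of these, 3 were in unexposed replicate 3 and 0 in mixture replicate 4.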

How the results depend on the processing

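The median within-group SD of 0.411 was 0.497 with FPKM as deposited, 0.444 with a pseudocount of 0.1, 0.354, 0.452 and 0.186 with a level limit of 1, of 20 and none, and 0.381 without both replicates 4 of benzo[a]pyrene and the mixture. The count of 192 genes with an SD of at least 1 was 329, 95 and 333 under those level limits and 120 among loci of at least 300 bases. The first component (22.5%) held 31.4% with FPKM as deposited, 19.3% with a pseudocount of 0.1 and 27.0% among longer loci. The difference in library root mean square for the mixture (0.0305) was -0.0853 without both replicates 4. Counts of genes called for spread, given for benzo[a]pyrene, triclosan and the mixture against unexposed (33, 22 and 23), were 118, 80 and 60 with a level limit of 1, 10, 8 and 6 with one of 20, and 1206, 933 and 919 with none. They were 1, 1 and 2 with the group median as centre and 14, 5 and 1 among longer loci. Without trend and robust settings they were 47, 14 and 8, and with a pseudocount of 0.1 they were 46, 25 and 23. With FPKM as deposited they were 24, 10 and 49, and without both replicates 4 they were 73, 29 and 18. The cause of these shifts was not tested.

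Leaving out each library in turn gave medians of 0.388 to 0.420, 185 to 205 genes with an SD of at least 1, and first and second component shares of 21.9 to 24.6% and 14.6 to 16.9%. Differences in root mean square were 0.0416 to 0.119 for benzo[a]pyrene, -0.0671 (without triclosan replicate 3) to 0.0179 (without triclosan replicate 2) for triclosan, and -0.0870 (without mixture replicate 4) to 0.0797 (without mixture replicate 3) for the mixture. Calls were 26 to 72 for benzo[a]pyrene, with 72 without unexposed replicate 3, 53 without mixture replicate 4, 52 without benzo[a]pyrene replicate 2, and 50 without benzo[a]pyrene or triclosan replicate 3. They were 12 to 27 for triclosan, with 12 without unexposed replicate 2 or 3. They were 14 to 79 for the mixture, with 79, 51 and 50 without mixture replicates 3, 2 and 1, 37 without unexposed replicate 1 and 14 without unexposed replicate 2.

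Over all genes, libraries of the same replicate number in different groups had a median correlation of deviations of -0.046 (24 pairs, 6 above 0.1). It was 0.035 for 72 pairs of different numbers, and 2 of 16 libraries correlated best with their own number. Replicates 4 nevertheless deviated in the same direction on the larger axis. In benzo[a]pyrene, triclosan, mixture and unexposed livers they had 1.35, 0.192, 1.29 and 0.481 for the 55-gene group. For the 56-gene group they had -0.895, -0.579, -0.664 and -0.633. Their correlations with each other ran from -0.189 to 0.244. What the numbers mark is not given, and a shared effect of replicate 4 was not tested. With a replicate block the spread calls were 0, 0 and 0, the first and second components held 19.7 and 19.0%, and the triclosan difference in root mean square was 0.0417 (main value -0.0216). Of 35 list correlations, 23 moved by more than their spread with FPKM as deposited, 4 under the block and 0 with rank correlation. Of 215 gene SDs, 79 moved with FPKM as deposited and 43 with a pseudocount of 0.1.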
